A study of Mus musculus with 195 samples.

Results

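Lin28a, Lin28b, Trim71, Igf2bp1, Igf2bp2, Igf2bp3, Hmga1 and Hmga2 form the Lin28-let-7 axis and its RNA-binding and chromatin partners, and these 8 genes were picked by name out of 19736 genes in the table of genes. All 8 had at least 1 molecule in the cells used. The counts come from BATSeq, in which an oligo-dT primer carries a cell barcode and a random molecular identifier, and the 3′ end of each polyadenylated transcript is sequenced. Each counted molecule is therefore 1 transcript end with its polyadenylation site, and a level does not grow with the length of a transcript. ESC-2i are mouse embryonic stem cells of the 46C line, which carries GFP in the Sox1 locus and was derived from E14tg2a, grown in serum-free medium with 1 µM PD0325901 (an inhibitor of MEK), 3 µM CHIR99021 (an inhibitor of GSK3) and LIF at 10 ng/ml. ESC-FCS are the same line in 10% FBS with LIF at 10 ng/ml, and NSC are neural progenitors made from these ES cells, sorted for GFP early in differentiation and then grown with N2 and B27, EGF and bFGF. All cells are labelled G1 and were sorted as small cells by DNA content, which does not separate G1 from G0. Each population had 48 cells in 2 library batches of 24, and separately made libraries held 48 further ESC-FCS control cells, 1 pool of 48 ESC-FCS cells and 2 pools of 48 ESC-2i cells.

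LIN28 proteins are RNA-binding proteins that bind the precursors of let-7 microRNAs and block their maturation, and LIN28A recruits terminal uridylyltransferases that tag the precursor for decay. Mature let-7 in turn recognises sites in the 3′ UTRs of Lin28a, Lin28b, Trim71, the Igf2bp genes and Hmga2, so that the axis can switch between a let-7-poor stem cell state and a let-7-rich differentiated state. Trim71 (also called Lin41) is an RNA-binding ubiquitin ligase of early embryos and stem cells. The IGF2BP proteins bind, stabilise and localise mRNAs, and HMGA1 and HMGA2 are architectural chromatin proteins of proliferating embryonic cells. HMGA2 is known for sustaining the self-renewal of fetal neural stem cells.

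Mature let-7 was not measured, because BATSeq reads polyadenylated ends. Of 11 mature let-7 family members listed by RefSeq for GRCm38.p6, 10 have the same seed, bases 2 to 8, and 1, let-7j, differs in it. The following 3 are printed to show that shared seed and its exception, with the seed in capitals.
mmu-let-7a-5p: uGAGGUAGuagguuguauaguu
mmu-miR-98-5p: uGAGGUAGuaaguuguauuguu
mmu-let-7j: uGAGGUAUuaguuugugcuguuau

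The reverse complement of the common seed, CTACCTC, was searched on the transcript strand from the stop codon to the annotated end of the 3′ UTR (GENCODE M21, GRCm38). All 8 genes held it, with 21 matches in all. Lin28b, Trim71, Igf2bp1 and Hmga2 had 4 each, Lin28a had 2, and Igf2bp2, Igf2bp3 and Hmga1 had 1 each. In 13 of the 21 an A followed the match. Among all genes with a stretch as long after the stop codon, the share with any match ran from 7.47% at the length of Hmga1 to 36.2% at the length of Igf2bp1. At least 4 matches were found in 0.0710% of genes at the length of Hmga2, 0.268% at that of Igf2bp1, 0.276% at that of Lin28b and 0.344% at that of Trim71, and at least 2 in 1.74% at that of Lin28a. These shares are of 2815, 373, 1086, 581 and 3211 genes in the same order, and the members themselves are counted among them. The 8 genes were picked by name, most of them as genes that let-7 is known to recognise. The low shares are therefore no test. The letters are a description of the window and are no measure of let-7 binding.

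The matches of Lin28a, Trim71 and Hmga2 are shown because the results below turn on these genes. Each line holds 30 bases of the transcript strand on GRCm38, all 3 genes lie on the minus strand, and capitals mark the seed match. The distances are counted from the stop codon.
Lin28a at 909 bases, chr4:134005189-134005218: ttggagtgcacagcctgttgaaCTACCTCa
Lin28a at 1547 bases, chr4:134004551-134004580: atgctttgagatcgccacaaacCTACCTCa
Trim71 at 166 bases, chr9:114512472-114512501: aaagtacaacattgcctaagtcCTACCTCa
Trim71 at 262 bases, chr9:114512376-114512405: cctgtgaagtgataatttctatCTACCTCa
Trim71 at 3591 bases, chr9:114509047-114509076: gattttgtttagtatggattttCTACCTCa
Trim71 at 3617 bases, chr9:114509021-114509050: ctcaattttggcaaaaagttgtCTACCTCa
Hmga2 at 21 bases, chr10:120364224-120364253: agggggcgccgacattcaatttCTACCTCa
Hmga2 at 1258 bases, chr10:120362987-120363016: caataatccccactcctcaataCTACCTCt
Hmga2 at 1696 bases, chr10:120362549-120362578: ggacttcctgatttgcaaggaaCTACCTCc
Hmga2 at 2554 bases, chr10:120361691-120361720: gttgtacaatcaaaacacactaCTACCTCt

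Polyadenylation sites with at least 3 molecules in the cells numbered 16 over the 8 genes. The 30 bases that end at the site are printed for the sites that divide the molecules of a gene, and for the one site of Lin28a. Capitals mark AATAAA, the canonical polyadenylation signal, and all lines are on the minus strand of GRCm38. Proximal names the earlier of the printed sites of a gene. Igf2bp1 had a site before it, at 5472 bases, with 3 molecules in the cells.
Lin28a, 2763 bases after the stop codon, chr4:134003342-134003371: ctgggaaAATAAAgacttattggtactcca
Trim71 proximal, 4372 bases, chr9:114508273-114508302: tataAATAAAtgtcaccatgaagaaatacc
Trim71 distal, 5506 bases, chr9:114507139-114507168: gtttaatcaAATAAAcagagggttgtccca
Igf2bp1 proximal, 5886 bases, chr11:95957614-95957643: atttgcatgatgAATAAAtaccttttacca
Igf2bp1 distal, 6333 bases, chr11:95957167-95957196: tcagcctcaaAATAAAaggaaacttatatt
Hmga2 proximal, 1324 bases, chr10:120362928-120362957: cttgttacacgctgctagacacaagccctg
Hmga2 distal, 2976 bases, chr10:120361276-120361305: ctgcacAATAAAcataacagcctctgtggg

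AATAAA stood in the 40 bases before 10 of 15 member sites with a readable sequence, and the other 5 had neither it nor ATTAAA. Of 20434 sites of all genes with at least 3 molecules, 16326 had a readable sequence in an annotated transcript. Of these 16326, 55.2% had AATAAA, 14.7% had ATTAAA alone and 30.1% had neither. The proximal Hmga2 site was among the 5 without a signal.

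**Figure D1:**
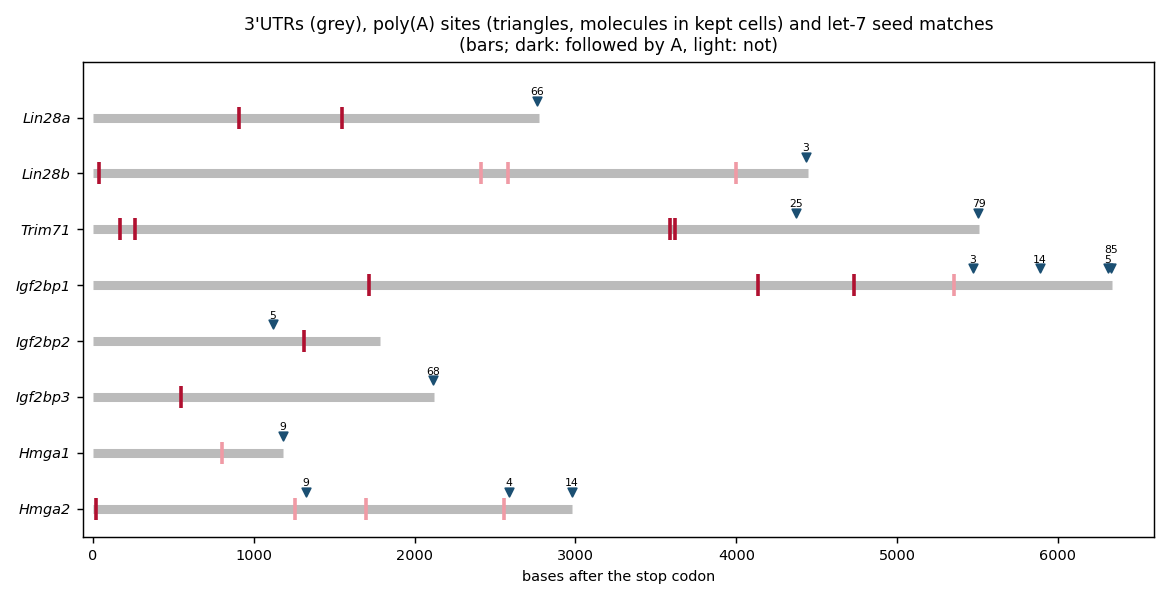
The 3′ UTR of each of the 8 genes is drawn to scale in bases after the stop codon, with the CTACCTC matches and the polyadenylation sites with at least 3 molecules, numbered by their molecules in the cells, and darker bars for matches followed by A. Trim71 and Igf2bp1 carry their 4 matches before every site shown, while the proximal Hmga2 site, at 1324 bases, lies before 2 of the 4.

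The cells used were those in the table of genes with at least 1000 molecules on genes, together with the control cells above the same limit. ESC-2i gave 33 cells of 5342 to 21049 molecules (median 10864), ESC-FCS 33 cells of 1079 to 14819 (median 6375), NSC 41 cells of 1234 to 9037 (median 3282) and the control 42 cells of 1323 to 14547. The ESC-FCS pool held 179155 molecules and the ESC-2i pools 479483 and 494799. The summed level of 8 pluripotent cell markers in ESC-2i, ESC-FCS and NSC was 23.1, 17.2 and 0.132 molecules per 10000 molecules on genes, and in NSC 2 of the 8 were seen. The 8 neural stem cell markers summed to 1.93, 1.63 and 50.4, with Pax6 at 0 in NSC. Neuron markers summed to 2.71, 5.07 and 4.35, of which Stmn2 was 2.52, 4.41 and 0 and Map2 was 0, 0.265 and 3.88, astrocyte markers to 0.543, 0 and 0, oligodendrocyte lineage markers to 0.190, 0 and 0.329, and primitive endoderm markers to 0.0271, 0.265 and 0. All 48 control cells carry batch and cell barcode pairs that ESC-2i cells also carry, and the batch barcodes of the 2 ESC-2i pools are those of the NSC batches. The 2 pools differed beyond sampling noise (chi-square of 5.78 per degree of freedom over 7205 genes) and were kept as 2 libraries. The labels name no separate cultures, so each population counts as 1 culture and no test between populations was made. Levels are pooled molecules per 10000 with exact Poisson 95% intervals, and the intervals on ratios and shares are also exact at 95%. All of them cover counting error only.

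The members fell into a group seen mainly in ES cells, 1 gene high in NSC, 1 gene seen in all 3 populations with overlapping batches, and 3 genes near the limit of detection. Trim71, Igf2bp1 and, in ESC-FCS, Lin28a were at 1.79 to 2.60 molecules per 10000 in ES cells and at 0 or 1 molecule in all NSC together. Hmga2 had the reverse order, with 1.51 per 10000 in NSC. Igf2bp3 lay between 0.794 and 1.25 in all 3.

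**Figure D2:**
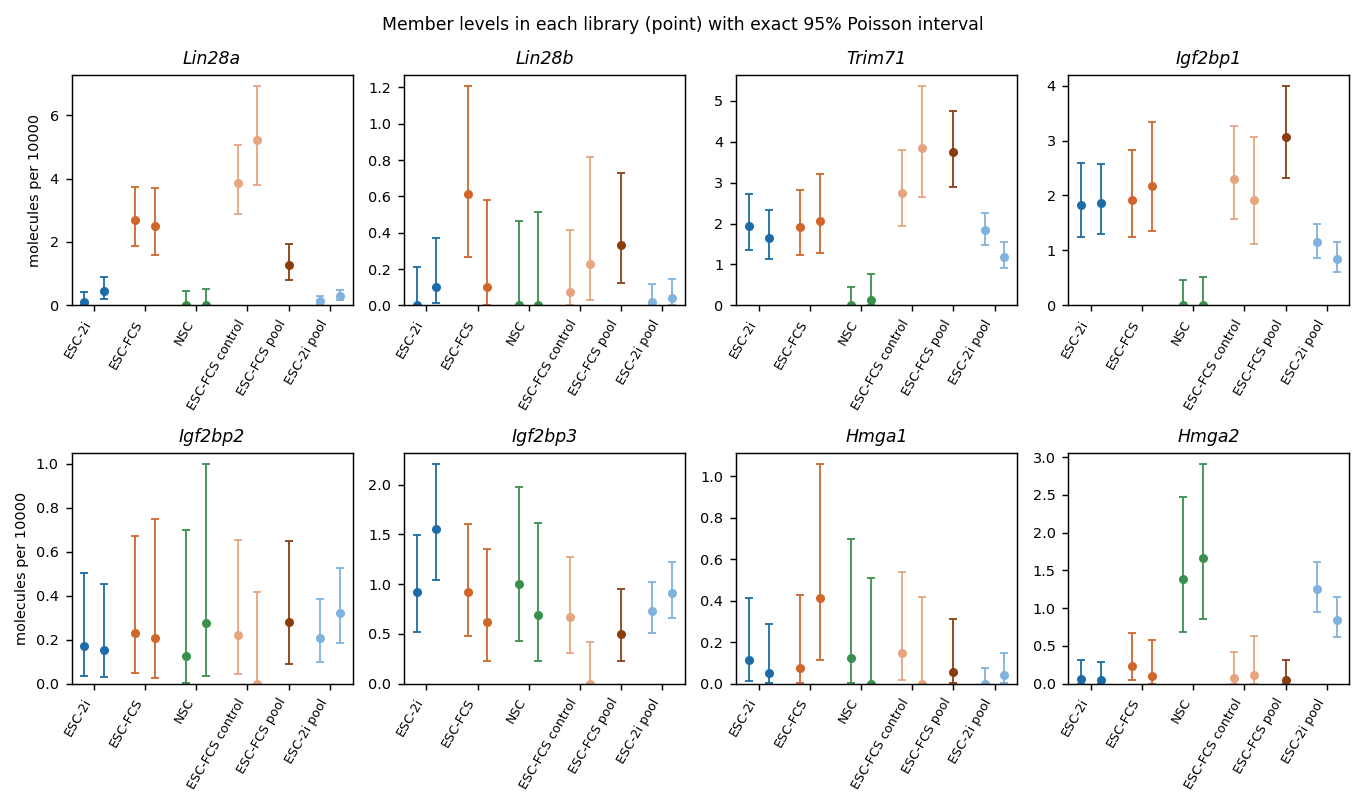
Molecules per 10000 molecules on genes (y axis) of each of the 8 genes in 11 libraries: the 2 batches of each main population, the 2 control batches and the 3 pools, with exact Poisson 95% intervals. Lin28a was between 1.28 and 5.20 in the 5 ESC-FCS libraries and at most 0.464 in the 4 ESC-2i libraries, and Hmga2 in the ESC-2i pools (1.25 and 0.849) approached the NSC batches (1.38 and 1.66).

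Lin28a, at chr4:134003330-134018841, had the largest ratio between ESC-FCS and ESC-2i cells among the 6 members with at least 10 molecules there. In ESC-2i it had 2 molecules in batch 1 and 9 in batch 2, or 0.115 and 0.464 per 10000. In ESC-FCS it had 35 and 24 molecules, or 2.69 and 2.49 per 10000, and in NSC it had 0 in both. Both ESC-FCS batches thus lay above both ESC-2i batches, and the pooled level in ESC-FCS, 2.60 (1.98 to 3.36), was 8.72 times (4.53 to 18.4) that in ESC-2i, 0.299 (0.149 to 0.534). Within pairs of library batches the ratio ran from 5.36 to 23.4. With its 0 set to 3 molecules over the population, or 0.198 per 10000, NSC lay 13.2-fold below ESC-FCS. The 95% interval of that ratio starts at 10.4-fold, and the interval of the NSC level ends at 0.243. No order of NSC and ESC-2i can be read, since ESC-2i batch 1, at 0.115, lies under the level that 0 molecules allow in NSC.

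The separately made libraries held Lin28a at 3.87 and 5.20 per 10000 in the control batches (98 molecules), 1.28 in the ESC-FCS pool (23 molecules) and 0.146 and 0.303 in the ESC-2i pools (7 and 15 molecules). Every ESC-FCS library was above every ESC-2i library. The control cells, at 4.39 (3.57 to 5.35), and the ESC-FCS pool, at 1.28 (0.814 to 1.93), differed with intervals apart. Control cells and pool together were at 3.01, which was 13.3 times (8.41 to 22.0) the level of the ESC-2i pools. The ESC-FCS pool alone gave 5.69 times. Without the first or the second ESC-2i pool the ratio was 9.92 or 20.6. The control cells share barcodes with the ESC-2i cells, in which Lin28a was low.

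Among cells, Lin28a was found in 7 of 33 ESC-2i cells (21.2%), in 21 of 33 ESC-FCS cells (63.6%), in 34 of 42 control cells (81.0%) and in 0 of 41 NSC, where the exact interval allows up to 8.60%. After each cell was thinned to 2000 molecules, with 0 shallower ESC-2i cells, 1 ESC-FCS, 4 control and 8 NSC left out, the expected shares in the same order were 4.63%, 38.0%, 54.5% and 0%. At the pooled level, counting error alone would give a molecule in 34.4 control cells, 24.6 ESC-FCS cells and 9.18 ESC-2i cells. The squared coefficient of variation over cells (CV2) was 0.897 in ESC-FCS, where counting error alone gives 0.849, and 0.802 in the control, where it gives 0.610. In ESC-2i it was 5.34 against 3.44, on 11 molecules, of which 2 cells held 3 or more each.

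Lin28b, the paralogue on chromosome 10, was rare. It had 2 molecules in ESC-2i (0.0543 per 10000), 9 in ESC-FCS (0.397) and 0 in NSC. The ESC-FCS molecules were unevenly spread, with 8 in batch 1 and 1 in batch 2, and 4 of the 9 lay in a single cell, at a site within an intron (chromosome 10, 45394142). The ratio of ESC-FCS to ESC-2i was 7.31 (1.51 to 69.5), and within pairs of batches it ran from 0.603 to 5.95. The 0.603 sets 1 molecule of ESC-FCS batch 2 against 0 molecules of ESC-2i batch 1, set to 3, and shows no reversal. Batch 2 of ESC-FCS and batch 2 of ESC-2i were at 0.104 and 0.103 per 10000. Without the cell with most molecules of the gene, Lin28b fell under the limit of 10 molecules for a comparison. The separate ESC-FCS libraries held 9 molecules and the ESC-2i pools 3.

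Trim71 was at a similar level in both ES cell cultures, within counting error. Its batches held 34 and 32 molecules in ESC-2i (1.95 and 1.65 per 10000), 25 and 20 in ESC-FCS (1.92 and 2.07), and 0 and 1 in NSC. The ranges of the ES cell batches overlap, and the ratio of ESC-FCS to ESC-2i was 1.11 (0.741 to 1.64). NSC, at 0.0658 per 10000, were 27.2-fold lower than ESC-2i and 30.1-fold lower than ESC-FCS, with intervals of 4.72 to 1091 and 5.14 to 1217 that rest on 1 molecule. Trim71 was found in 29 of 33 ESC-2i cells (87.9%), 23 of 33 ESC-FCS cells (69.7%) and 1 of 41 NSC (2.44%). Thinned to 2000 molecules, the ES cell shares were 30.5% and 30.8%. CV2 was 0.482 in ESC-2i and 0.773 in ESC-FCS, below the 0.574 and 1.11 that counting error gives.

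In the separate libraries Trim71 was 2.75 and 3.84 per 10000 in the control batches, 3.74 in the ESC-FCS pool, and 1.84 and 1.19 in the ESC-2i pools. The separate ESC-FCS libraries were all above both ESC-2i pools, with a ratio of 2.27 (1.79 to 2.89) that lies above the interval in the cells. Without the second ESC-2i pool it was 1.87, and by reads in place of molecules 1.72, both under 2. Against the ESC-FCS cells, the separate ESC-FCS libraries were at 1.73 times the level (1.23 to 2.48), and the ESC-2i pools were at 0.842 times the ESC-2i cells (0.626 to 1.14).

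Igf2bp1, on chromosome 11, followed the same order as Trim71. It had 32 and 36 molecules in the ESC-2i batches (1.83 and 1.86 per 10000), 25 and 21 in the ESC-FCS batches (1.92 and 2.18) and 0 in both NSC batches. The ES cell cultures differed by 1.10 times (0.739 to 1.62). With 0 set to 3 molecules, NSC were 9.35-fold below ESC-2i and 10.3-fold below ESC-FCS. The intervals start at 7.40-fold and 8.02-fold. Igf2bp1 was found in 25 of 33 ESC-2i cells, 23 of 33 ESC-FCS cells and 0 of 41 NSC. In the control batches it was at 2.30 and 1.92, in the ESC-FCS pool at 3.07 and in the ESC-2i pools at 1.15 and 0.849. The separate ESC-FCS libraries were at 2.57 times (1.93 to 3.43) the ESC-2i pools, but at 1.39 times (1.01 to 1.91) the ESC-2i cells. The ESC-2i pools were at 0.539 times (0.392 to 0.747) the level of the ESC-2i cells.

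Igf2bp3, on chromosome 6, was the family member seen in all 3 populations. It had 16 and 30 molecules in the ESC-2i batches (0.917 and 1.55 per 10000), 12 and 6 in ESC-FCS (0.921 and 0.622) and 8 and 5 in NSC (1.00 and 0.694). The batches of the 3 populations overlapped, and the ratios were 0.636 (0.347 to 1.12) for ESC-FCS to ESC-2i, 0.685 (0.340 to 1.29) for NSC to ESC-2i and 1.08 (0.486 to 2.33) for NSC to ESC-FCS. Each of these intervals reaches past 2-fold in at least 1 direction. Cells with a molecule were 22 of 33, 14 of 33 and 10 of 41, and the shares at 2000 molecules were 22.7%, 16.3% and 18.4%. In the control cells all 9 molecules came from batch 1, and the ESC-FCS pool was at 0.502 and the ESC-2i pools at 0.730 and 0.909 per 10000. The separate ESC-FCS libraries together were at 0.545 times (0.307 to 0.917) the ESC-2i pools, and pairs of these libraries gave 0.373 to 0.916.

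Igf2bp2 and Hmga1 were close to the limit of detection. Igf2bp2 had 6 molecules over the ESC-2i cells, 5 over ESC-FCS and 3 over NSC (0.163, 0.221 and 0.198 per 10000), and Hmga1 had 3, 5 and 1 (0.0814, 0.221 and 0.0658). The order of the populations cannot be read from such counts. Hmga1 is also uncertain because the authors dropped reads that align to several places, and 91.9% of the 30-base runs in the last 400 bases of its transcript are shared with Hmga1b, a near-identical copy.

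Hmga2, at chr10:120361275-120476469, was the only member of the 8 with its highest level among the cells in NSC and a ratio past 2. It had 11 and 12 molecules in the NSC batches (1.38 and 1.66 per 10000), 1 and 1 in the ESC-2i batches (0.0573 and 0.0516) and 3 and 1 in the ESC-FCS batches (0.230 and 0.104). Both NSC batches stood above all 4 ES cell batches. The level over all NSC, 1.51 (0.960 to 2.27), was 27.9 times (6.89 to 244) that in ESC-2i and 8.58 times (2.93 to 34.1) that in ESC-FCS, and the batch pairs gave 24.1 to 32.3 and 5.99 to 16.0. It was found in 15 of 41 NSC (36.6%), 2 of 33 ESC-2i cells and 3 of 33 ESC-FCS cells, and at 2000 molecules the NSC share was 25.2%.

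The spread of Hmga2 over NSC was wider than counting error. CV2 was 5.01 where counting error gives 2.29, and no other member reached a factor of 2 over counting error in any main population. This rested on 1 cell with 3 molecules and a level of 23.3 per 10000. Without that cell CV2 was 2.80 against 2.53, and over cells of at least 2000 molecules it was 2.14 against 1.92.

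**Figure D3:**
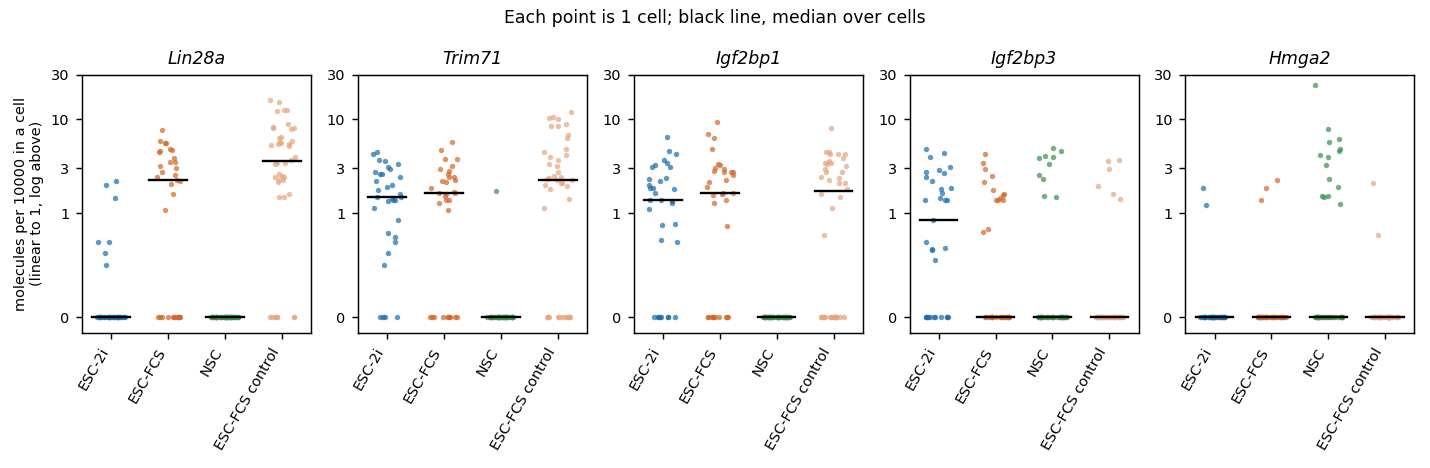
Molecules per 10000 (y axis, linear up to 1 and logarithmic above) of Lin28a, Trim71, Igf2bp1, Igf2bp3 and Hmga2 in each cell (points) of ESC-2i, ESC-FCS, NSC and the ESC-FCS control, with the median of each group as a black line. Lin28a reached 7.59 in the highest ESC-FCS cell and 16.0 in the highest control cell, and the single NSC at 23.3 stands apart for Hmga2.

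The ESC-2i pools did not match the ESC-2i cells for Hmga2. They held 60 and 42 molecules, or 1.25 and 0.849 per 10000, which together was 19.3 times (5.20 to 161) the level of the 33 ESC-2i cells, and only 36 of 10604 genes (0.339%) had a ratio as large between the pools and the cells. The pools carry the batch barcodes of NSC, and their neural stem cell markers summed to 4.12 per 10000 against 1.93 in the cells. Among neural stem cell markers seen in NSC, Olig1 and Olig2 were at 0 in the pools, and Fabp7 was at 0.0616 (24.8 in NSC), Slc1a3 at 0.103 (2.44) and Nes at 0.123 (3.09). Vim was at 3.77 in the pools, 1.60 in the ESC-2i cells and 8.56 in NSC. Pax6 was at 0 in the pools and also in NSC. Neuron markers summed to 4.50 in the pools and 2.71 in the cells, with Tubb3 at 2.31 against 0.190 and Stmn2 at 1.80 against 2.52. Pluripotent cell markers summed to 27.8 and 23.1, with Nanog at 15.0 against 4.67, Fgf4 at 3.54 against 2.17 and Klf4 at 0.565 against 0.543, while Esrrb (4.20 against 8.14), Tdgf1 (3.36 against 5.24), Zfp42, Pou5f1 and Dppa5a were lower in the pools. The RNA of the pools was purified before amplification, while single cells were lysed directly. In a pool, fewer cells that express a gene and less RNA per cell cannot be told apart. The part of barcodes, purification or culture in the Hmga2 level of the pools was not tested.

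In the ESC-FCS libraries made apart, Hmga2 stayed low, with 1 and 1 molecules in the control batches and 1 in the pool. The separate libraries of the 2 cultures therefore gave a ratio of ESC-FCS to ESC-2i of 0.0712 (0.0145 to 0.214), or 14.0-fold lower in ESC-FCS, where the cells gave 3.25 (0.466 to 35.9) on 6 molecules.

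Counted as a list, 6 members had at least 10 molecules in ESC-FCS and ESC-2i together. Of these, 2 (Lin28a and Lin28b) were at least 2-fold higher in ESC-FCS, where 11.1% of 7636 genes were, and 0 were at least 2-fold lower, where 17.7% were. Of 5 members compared between NSC and ESC-2i, 1 (Hmga2) was higher in NSC and 2 (Trim71 and Igf2bp1) were lower, against 22.9% and 23.4% of 7567 genes. Of 5 compared between NSC and ESC-FCS, 1 was higher (Hmga2) and 3 were lower (Lin28a, Trim71 and Igf2bp1), against 25.1% and 21.0% of 6214 genes. The 3 comparisons share their populations in pairs. Median ratios of the members were 1.23, 0.661 and 0.0973, and those of all genes compared 0.938, 0.994 and 1.07.

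In the separate libraries 7 members could be compared. Here 4 were at least 2-fold higher in ESC-FCS (Lin28a, Lin28b, Trim71 and Igf2bp1), against 20.7% of 10554 genes, and 1 (Hmga2) was lower, against 34.3%. These libraries differ more over all genes: between the ESC-2i pools and the ESC-2i cells 53.0% of 10604 genes passed 2-fold in either direction, and of 6 members 1 did, Hmga2. Between the separate ESC-FCS libraries and the ESC-FCS cells 32.4% of 7795 genes passed and 0 of 6 members. With the ESC-2i cells in place of the pools, the separate ESC-FCS libraries had Lin28a at 10.1 times, Lin28b at 4.12 times and Igf2bp3 at 0.358 times the ESC-2i level, 3 of 6 members past 2-fold where 41.6% of 8644 genes were, and Trim71 and Igf2bp1 were at 1.91 and 1.39 times.

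**Figure D4:**
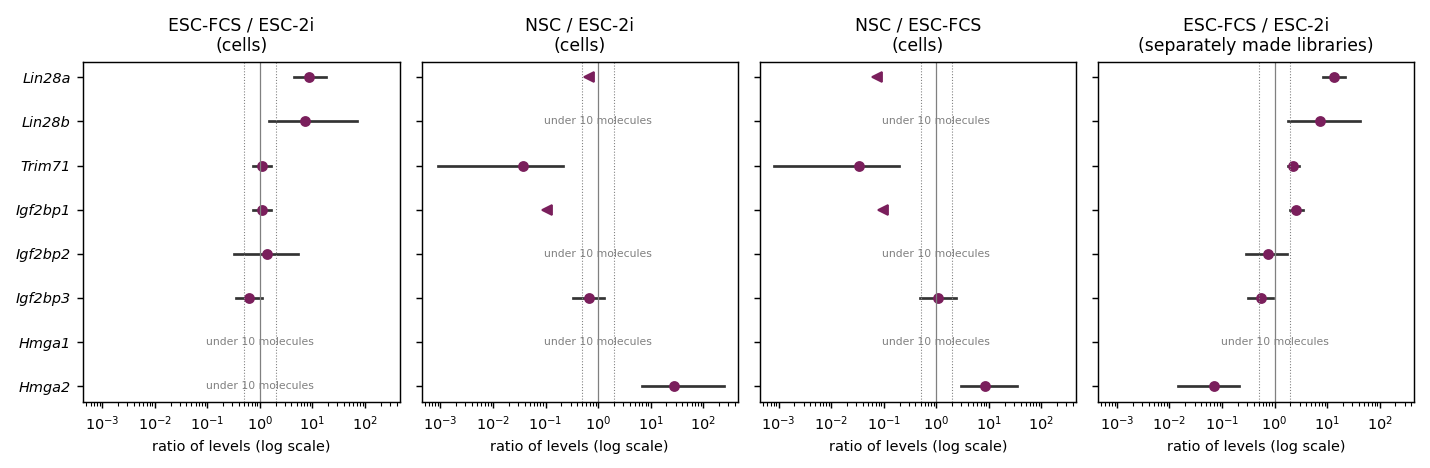
Ratio of levels (log axis) with exact 95% intervals for each member with at least 10 molecules in 4 comparisons, with left-pointing triangles for bounds where NSC had 0 molecules and dotted lines at ratios of 0.5 and 2. Lin28a lies right of 2 in both ESC-FCS to ESC-2i panels, and Hmga2 lies right of 2 in both NSC panels and left of 0.5 in the separate libraries (0.0712), while its 6 molecules in the ES cells are under the limit for a ratio there.

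ERCC spike-in transcripts gave another scale. Per ERCC molecule the cells held 24.0 molecules in ESC-FCS, 11.7 in ESC-2i and 9.49 in NSC, so scaling by ERCC multiplies every ratio of ESC-FCS to ESC-2i by 2.06, a shift of 1.04 on the log2 scale. For NSC to ESC-2i and NSC to ESC-FCS the shifts are -0.30 and -1.34. Relative to that shift the order of the members is the same. On this scale Trim71 and Igf2bp1 were 2.28 and 2.27 times as high in ESC-FCS as in ESC-2i, and Igf2bp3 was 1.31 times as high, on the other side of 1 from its ratio per 10000 molecules. Igf2bp3 in NSC was at 0.425 times ESC-FCS on this scale.

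Within ESC-2i the order of levels was Igf2bp1, Trim71, Igf2bp3, Lin28a, Igf2bp2, Hmga1, and Lin28b and Hmga2 together. The first 3 had overlapping intervals and Lin28a lay below them, while the last 5 overlapped one another. Within ESC-FCS the order was Lin28a, Igf2bp1, Trim71, Igf2bp3, Lin28b, Igf2bp2 and Hmga1 together, and Hmga2, with the first 3 overlapping and Igf2bp3 below them. Among NSC Hmga2 came first and Igf2bp3 second with overlapping intervals, followed by Igf2bp2 with 3 molecules and the rest at 0 or 1.

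Across the cells of a population, Pearson's r of log2(molecules per 10000 + 1) was computed where both members had a molecule in at least 10 cells, which gave 10 values over the 3 main populations, from -0.24 to 0.41. It was 0.41 for Trim71 and Igf2bp1 over 33 ESC-2i cells, but 0.04 over 33 ESC-FCS cells. In the control cells, which are not among those 10, it was 0.32 over 42 cells. The cells share library and depth, and with counts of 0 to 7 per cell such values are descriptions.

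The polyadenylation sites divided the members into genes with 1 main end and genes with several. Lin28a ended at 1 site, 2763 bases after the stop codon, in 11 of 11 ESC-2i molecules and 55 of 59 ESC-FCS molecules (93.2%). Igf2bp3 ended 2115 bases after the stop codon in 91.3% of ESC-2i, 77.8% of ESC-FCS and 92.3% of NSC molecules, and Hmga1 had a single site in the cells, at 1179 bases. Of the 14 Igf2bp2 molecules 5 ended 1118 bases after the stop codon, before its 1 seed match, and the others were scattered over sites with fewer than 3 molecules.

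Trim71 molecules ended mainly at 5506 bases, next to the annotated end, and otherwise at 4372 bases. The proximal site took 18 of 66 molecules in ESC-2i (27.3%, 17.0 to 39.6) and 7 of 45 in ESC-FCS (15.6%, 6.49 to 29.5). In the separate libraries it took 15 of 138 ESC-FCS molecules (10.9%, 6.21 to 17.3) and 23 of 147 in the ESC-2i pools (15.6%, 10.2 to 22.5). All 4 intervals overlap. The 4 let-7 seed matches of Trim71 lie before both sites, so either end keeps them.

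Igf2bp1 had its distal site, at 6333 bases, in 53 of 68 ESC-2i molecules (77.9%) and 32 of 46 ESC-FCS molecules (69.6%). The site at 5886 bases took 6 of 68 (8.82%, 3.31 to 18.2) and 8 of 46 (17.4%, 7.82 to 31.4). It took 24 of 103 molecules (23.3%, 15.5 to 32.7) in the separate ESC-FCS libraries and 45 of 97 (46.4%, 36.2 to 56.8) in the ESC-2i pools. An earlier site, at 5472 bases, took 0 of 68 molecules in the ESC-2i cells and 3 of 46 in the ESC-FCS cells. In the separate ESC-FCS libraries it took 10 of 103 (9.71%, 4.75 to 17.1), and in the ESC-2i pools 16 of 97 (16.5%, 9.73 to 25.4). The pools and the cells of ESC-2i thus differed in site use with intervals apart, while the gene's level in the pools was lower. All 4 seed matches lie before each of these sites.

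Hmga2 had 3 sites in NSC. Of 23 molecules 7 ended at 1324 bases (30.4%, 13.2 to 52.9), 3 at 2589 bases (13.0%) and 11 at 2976 bases (47.8%, 26.8 to 69.4). Counted by reads, the share at 1324 bases was 58.7%, above that interval. Molecules that ended at 1324 bases keep 2 of the 4 seed matches, and those at the other sites keep all 4. In a stretch of 1324 bases 0.704% of genes, Hmga2 among them, reach 2 matches. The NSC batches differed in their distal ends. Batch 1 had 3 of 11 molecules at 1324 bases, 0 at 2589 and 8 at 2976, and batch 2 had 4 of 12 at 1324 bases, 3 at 2589 and 3 at 2976. In the ESC-2i pools 1 of 102 molecules (0.980%, 0.0248 to 5.34) ended at 1324 bases and 94 (92.2%, 85.1 to 96.6) at 2976 bases. The intervals of the pools and of all NSC are apart at both sites, but the distal share of NSC rests on 11 molecules of which 8 came from batch 1. The proximal site had no AATAAA or ATTAAA in the 40 bases before it.

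**Figure D5:**
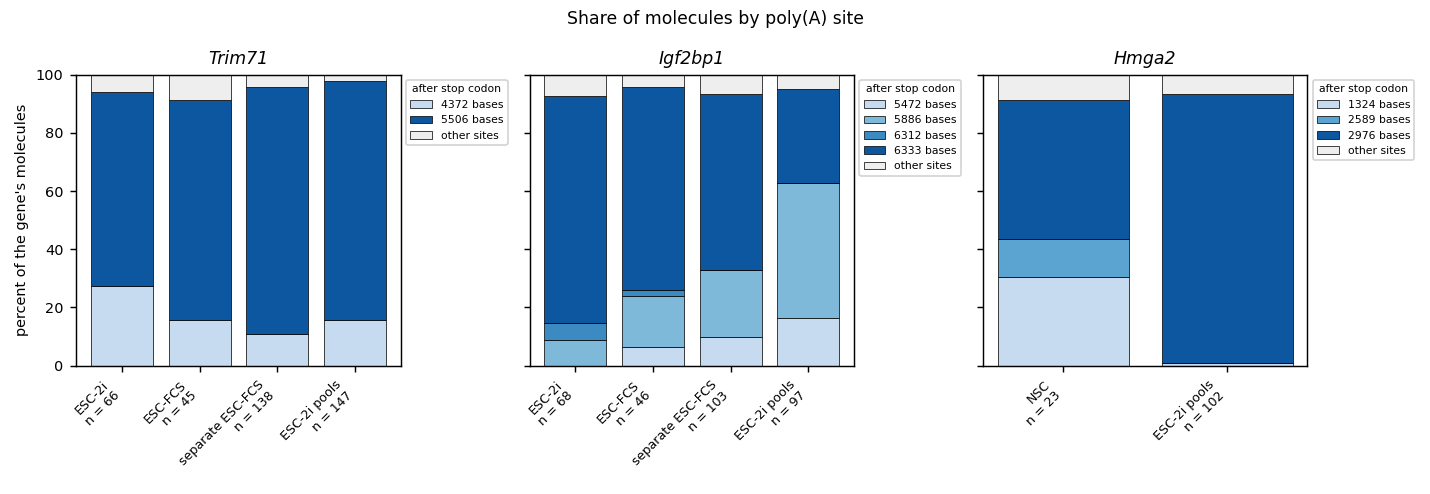
Share of the molecules of Trim71, Igf2bp1 and Hmga2 (percent, y axis) that ended at each site, named by its distance from the stop codon, with the number of molecules under each bar. The proximal Hmga2 site took 30.4% in NSC and 0.980% in the ESC-2i pools, and the Igf2bp1 site at 5886 bases took 8.82% in ESC-2i and 46.4% in the ESC-2i pools.

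Genes that make let-7 and act with it came next. Of 21 genes of microRNA processing and silencing, 16 could be compared between ESC-FCS and ESC-2i, and 1 was at least 2-fold higher and 3 lower in ESC-FCS, with a median ratio of 0.824, beside 11.1% and 17.7% of all genes and their median of 0.938. Between NSC and ESC-2i, 1 of 17 was higher and 2 were lower (median 0.958), beside 22.9% and 23.4% of all genes (median 0.994). Between NSC and ESC-FCS, 1 of 14 was higher and 1 lower (median 1.09), beside 25.1% and 21.0% of all genes (median 1.07). Drosha, the nuclease that cuts primary microRNAs, was at 1.91 per 10000 in NSC, 2.44 in ESC-2i and 1.32 in ESC-FCS. Dicer1, which cuts the precursors, was at 0.516, 0.397 and 0.527 (here and below in the order ESC-2i, ESC-FCS, NSC). Zcchc11 (Tut4) and Zcchc6 (Tut7), the uridylyltransferases that act with LIN28A, were at 0.244, 0.0882 and 0.461 and at 0.271, 0.221 and 0.198. Dis3l2, the exonuclease that degrades uridylated let-7 precursors, was at 0.787, 0.265 and 0.0658, on 29, 6 and 1 molecules, and is named here after its values were seen. Ago2, the microRNA-guided endonuclease, was at 1.17, 0.573 and 0.922.

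Other let-7 targets, a list of 32 genes with the members left out, lay on both sides of a ratio of 1. Between ESC-FCS and ESC-2i, 4 of 19 were at least 2-fold higher and 2 lower (median ratio 1.18), where 11.1% and 17.7% of all genes were. Nr6a1, an orphan nuclear receptor, was at 0.838 against 0.109 per 10000, a ratio of 7.72 (2.57 to 31.2). Mycn was at 0.618 against 0.190 (ratio 3.25) and Cdk6, a cell cycle kinase, at 0.838 against 0.326 (ratio 2.57). Arid3b, a DNA-binding protein, was 2.87-fold lower in ESC-FCS, at 0.397 against 1.14.

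Between NSC and ESC-2i, 4 of these targets were higher and 9 lower of 20 (median 0.866), where 22.9% and 23.4% of all genes were (median 0.994). Between NSC and ESC-FCS 4 were higher and 10 lower of 19 (median 0.398), where 25.1% and 21.0% of all genes were (median 1.07). Ccnd2, cyclin D2, was at 2.90 per 10000 in NSC and had 0 molecules in the cells of either ES cell culture. With 0 set to 3 molecules it was 35.6-fold higher than in ESC-2i and 21.9-fold higher than in ESC-FCS. The intervals start at 27.7-fold and 17.1-fold. Myc was at 1.78 in NSC with 0 molecules in the cells of both ES cell cultures. With 0 set to 3 molecules it was 21.8-fold and 13.4-fold higher, with intervals from 16.6-fold and 10.2-fold. The separate ESC-FCS libraries held 9 Myc molecules (0.224 per 10000) and the ESC-2i pools 2 (0.0205). For Ccnd2 these libraries held 2 (0.0497) and 7 (0.0718). Irs2, an adaptor of the insulin receptor, was 5.66 times (1.29 to 33.9) as high in NSC as in ESC-2i, on 7 and 3 molecules. Sall4, a zinc finger factor of pluripotent cells, had 1 molecule in NSC against 138 in ESC-2i and 94 in ESC-FCS, and was 56.9-fold and 63.0-fold lower. Arid3b was 17.3-fold (2.94 to 700.1) lower in NSC than in ESC-2i, on 1 and 42 molecules. Dna2 was 2.47-fold lower on 2 and 12 molecules, with an interval, 0.551 to 22.8, that includes no change. Rrm2 and Cdc34 were 5.69-fold and 3.56-fold lower in NSC than in ESC-FCS.

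Other RNA-binding regulators numbered 26 genes. Between ESC-FCS and ESC-2i, 2 of 21 were higher and 2 lower (median ratio 0.960), where 11.1% and 17.7% of all genes were. Esrp1, an epithelial splicing regulator, had 17 molecules in ESC-FCS and 0 in ESC-2i. With 0 set to 3 molecules it was 9.21-fold higher in ESC-FCS, with an interval from 6.71-fold. Qk (quaking), a splicing regulator of glia, was 3.90-fold lower in ESC-FCS. Between NSC and ESC-2i, 9 of 21 were higher and 1 lower (median 1.75), where 22.9% and 23.4% of all genes were (median 0.994). Celf2 was 13.1 times, Msi1 (Musashi-1, a neural stem cell RNA-binding protein) 7.28 times and Ptbp2 6.37 times as high in NSC, with Msi1 on 9 and 3 molecules (1.82 to 41.8). The separate ESC-FCS libraries held Ptbp2 at 1.49 and Msi1 at 0.547 per 10000, beside 1.38 and 0.593 in NSC. The ESC-2i pools held them at 0.482 and 0.339. Celf2 was at 0.0249 in the separate ESC-FCS libraries and at 1.78 in NSC. L1td1, an RNA-binding protein of pluripotent cells, had 0 molecules in NSC. With 0 set to 3 molecules it was 17.6-fold lower than in ESC-2i and 15.2-fold lower than in ESC-FCS. The intervals start at 14.1-fold and 12.0-fold. Between NSC and ESC-FCS, 9 of 22 were higher and 2 lower (median 1.26), where 25.1% and 21.0% of all genes were (median 1.07), and Qk was 16.1 times and Celf2 5.76 times as high.

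In the separate libraries, where the median ratio of ESC-FCS to ESC-2i over all genes was 0.737, 4 of 19 processing genes were higher and 7 lower, 8 of 23 other targets were higher and 5 lower, and 8 of 22 other RNA-binding regulators were higher and 3 lower. Of all genes 20.7% were higher and 34.3% lower. Among the processing genes, Tnrc6b (9.69 times, on 8 and 2 molecules) and Ddx17 (3.15 times) were higher in ESC-FCS. Zcchc6 (5.61-fold), Dgcr8 (3.18-fold) and Drosha (3.03-fold) were lower. Mycn was at 2.64 against 0.441 per 10000 (5.97 times), and Esrp1 at 0.995 against 0.0308. The ratio of Esrp1 rests on 40 and 3 molecules. Nr6a1 (0.771 against 0.287) and Cdk6 (0.348 against 0.246) were also higher in ESC-FCS. Arid3b (0.696 against 0.411) and Qk (2.09 against 1.03), both lower in ESC-FCS among the cells, were higher in ESC-FCS here.

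For each member with at least 50 molecules, the genes with the most similar levels were sought by Pearson's r over the 11 libraries, among 2754 genes. For Lin28a these were Etnk1 (0.95), Enah (0.92) and Orc6 (0.92), and for Trim71 they were Tdgf1 (0.97), Stmn2 (0.95) and Fn1 (0.95). Igf2bp1 was most similar to Stmn2 (0.98), Gga2 (0.96) and Pml (0.96), and Igf2bp3 to Ubl3 (0.94), Spr (0.82) and Ago2 (0.81). The libraries fall into 3 populations and differ in depth, so these values describe which genes share a profile over populations. Tdgf1, Stmn2 and Fn1 were, like Igf2bp1, at 0 in both NSC libraries.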

How the data were processed

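Cells were sorted, BATSeq libraries were made, and reads were aligned by the authors with GSNAP to GRCm38. Reads that aligned to several places, ended in stretches rich in A or were short were removed, and molecular identifiers were merged per gene, with positions within 12 nt joined to the most used site. A read up to 20000 nt downstream of a gene was assigned to it. The values deposited are counts of molecules and of reads per polyadenylation site and cell, not normalized, with the names of the class and distance columns exchanged in the tables of cells, and the submitters' processing notes name HTSeq and R 3.0.2. The deposited gene counts equal the sums over sites in all but 4 of 2111752 entries, and in all entries of the members.

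The members and gene lists were chosen with earlier results of these data known. Levels were computed from these counts as molecules per 10000, pooled over cells of at least 1000 molecules. A member or list gene was compared at a minimum of 10 molecules in both groups together, was called at 2-fold, and a group at 0 was set to 3 molecules over the group. Each population is 1 culture, so there are no p-values. All members are named. Of each other list apart from the markers, up to 3 genes in each direction were named by the largest ratio in each comparison among the cells. They had to pass 2-fold the same way in every pair of library batches. The processing genes named among the cells were named outside this rule. In the separate libraries the rule named the processing genes, and its picks from the other lists are named only in part. The 3 genes most similar to each member with at least 50 molecules were named as well. Marker lists and sites with at least 3 molecules followed fixed rules. Reads mapped to antisense classes were left out. Shares use Clopper-Pearson intervals. The scripts were tested on simulated data, in Python 3.11.15 with numpy 2.4.6, pandas 2.3.3, scipy 1.17.1 and matplotlib 3.10.9. Depth per cell sets the precision and is given with the levels. The level of 1 marker gene is not reported here.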

Additional observations from a re-analysis of the deposited data

Results flagged for a closer look

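Hmga2 differed between the cells and the separately made libraries. The ratio of ESC-FCS to ESC-2i was 0.0712 in the separate libraries, with 3 molecules in the control cells and ESC-FCS pool together and 102 in the ESC-2i pools, and every pair of these libraries gave a ratio between 0.0446 and 0.133. In the cells, every pair of library batches gave a ratio above 1, between 1.81 and 4.47, on 6 molecules. The difference was not tested. The ESC-2i pools share their batch barcodes with NSC, where Hmga2 was at 1.51 per 10000, and Olig1 and Olig2 were at 0 in the pools, with Fabp7 at 0.0616 per 10000 against 24.8 in NSC. The Hmga2 molecules of the pools ended at 2976 bases in 92.2% and those of NSC in 47.8%, with 8 of 11 molecules in NSC batch 1 and 3 of 12 in batch 2.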

How the results depend on the processing

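Over all alternatives 229 values of levels, 214 of ratios and 23 of site shares lay within the 95% interval of the main value, and 11, 15 and 2 lay outside. No ratio called past 2-fold reversed in an alternative that left it at least 10 molecules. But Hmga2 in the separate libraries, 0.0712, was 1.37 on 5 molecules with the ESC-2i cells in place of the pools. Lin28b was 0.603 in 1 pair of batches, on 1 molecule in ESC-FCS against 0 in ESC-2i set to 3. Members past 2-fold between ESC-FCS and ESC-2i numbered 2, and 5 per 100 ERCC molecules, 4 without the filter on low counts, and 1 without the cell with most molecules, in library batch 1 only, and with at least 20 molecules together. The counts for NSC, 3 and 4, changed by at most 1.5 times under every alternative run. In the separate libraries 5 members passed, and 3 at 3-fold. With the ESC-2i cells in place of the ESC-2i pools, an alternative chosen after seeing the data, 3 passed. Leaving out 1 ESC-2i pool gave 4 to 6, with Trim71 at 1.87 without the second and Igf2bp3 at 0.492 without the first. By reads in place of molecules the proximal Hmga2 share in NSC was 58.7%. The 8 bases CTACCTCA gave 13 in place of 21 seed matches. CV2 was more than 2 times counting error in 1 case, Hmga2 in NSC. In cells of at least 2000 molecules, or without the cell with most molecules, 0 cases passed that factor. Hmga2 in NSC then stayed above counting error by less, at 2.14 against 1.92 and 2.80 against 2.53. No paired analysis was possible because each population is 1 culture and no test was made. Depth limits Lin28b, Igf2bp2 and Hmga1 most, each with fewer than 15 molecules in the cells.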
